A study of Mus musculus with 4 samples.

Results

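Cytosolic ribosomal protein genes encode the proteins that, with ribosomal RNA, build the ribosome, the particle that translates messenger RNA. They were taken here as every gene whose symbol is Rpl or Rps followed by a number, with at most an a, x or y suffix and its copies, together with Rplp0, Rplp1, Rplp2 and Rpsa. Pseudogene symbols and the S6 kinase genes were left out. Of 23337 gene symbols in the count tables, 85 met this rule, of which 52 belonged to the large subunit, its stalk included, and 33 to the small subunit. The 85 comprised 7 paralogs (symbols ending in l, or in l and a digit), the gene Rps4y2, and 77 others.

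RNA-seq was performed on cells sorted from the olfactory epithelium of 4 mice of mixed background, 1 mouse per sample. The epithelium had been damaged with 50 mg/kg methimazole and had regenerated for 4 weeks. The sort took cells that carried Tomato, a red fluorescent reporter from the R26 Ai9 allele that is switched on by Cre from the keratin 5 promoter (K5Cre), which is active in horizontal basal cells, a reserve stem cell of this tissue. The same Cre deletes floxed exon 2 of Lmnb1, the gene for the nuclear lamina protein lamin B1. Mutant cells were Lmnb1-/- and control cells were Lmnb1+/-, with 2 samples each, and the controls thus also carried the Cre, the reporter, 1 deleted allele and the drug treatment. The tissue was a mosaic of recombined and unrecombined cells, and the sorted cells were a mixture of basal cells and their neuronal and supporting progeny. The mice formed 2 experimental groups of 1 mutant and 1 control littermate. Parents, age, sex and treatment were shared within an experimental group and differed between the groups. Control 1 and mutant 1 are called group 1 here, and control 2 and mutant 2 are called group 2.

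Each ribosome holds, in general, a single copy of each of these proteins, and cells keep their supply in proportion. The genes are transcribed at a high level in growing and dividing cells. Most of their mRNAs begin with a cytosine and an unbroken run of pyrimidines (C or T in the gene), called the 5′ terminal oligopyrimidine (TOP) motif, through which mTOR complex 1 and the RNA-binding protein Larp1 control how strongly they are translated. RNA-seq counts measure the amount of these mRNAs and not their translation.

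Start sites of several members are shown because the TOP motif is the sequence that this gene family shares. The letters come from RefSeq start sites on the GRCm38.p6 build and give 30 bases of the coding strand, from 10 bases before to 20 bases from the start site on. Capitals mark the longest unbroken run of C and T. Long runs were found at start sites of Rpl27a (chr7:109519185-109519214, plus strand), Rpl35 (chr2:39005112-39005141, minus strand), Rpl15 (chr14:18270967-18270996, minus strand), Rpl13a (chr7:45128726-45128755, minus strand), Rps12 (chr10:23787190-23787219, minus strand), Rps6 (chr4:86857348-86857377, minus strand), Rplp2 (chr7:141447641-141447670, plus strand) and Rps24 (chr14:24490668-24490697, plus strand).
Rpl27a: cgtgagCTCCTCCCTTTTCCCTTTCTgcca
Rpl35: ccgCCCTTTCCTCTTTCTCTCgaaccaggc
Rpl15: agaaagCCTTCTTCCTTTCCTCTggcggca
Rpl13a: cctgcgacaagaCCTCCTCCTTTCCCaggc
Rps12: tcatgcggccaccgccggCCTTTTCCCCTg
Rps6: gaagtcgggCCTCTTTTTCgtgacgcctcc
Rplp2: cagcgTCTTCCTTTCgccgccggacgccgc
Rps24: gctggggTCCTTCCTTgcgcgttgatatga

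Short runs were found at the listed start sites of other members. They are shown for Rpl36a (chrX:134585644-134585673, plus strand), for its paralog Rpl36al (chr12:69184048-69184077, minus strand), for the paralog Rpl7l1 (chr17:46782637-46782666, minus strand), for Rpl23 (chr11:97782420-97782449, minus strand) and for Rpl41 (chr10:128549149-128549178, minus strand), all of which are described below.
Rpl36a: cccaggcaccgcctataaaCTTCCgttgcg
Rpl36al: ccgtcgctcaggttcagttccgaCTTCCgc
Rpl7l1: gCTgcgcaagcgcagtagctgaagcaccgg
Rpl23: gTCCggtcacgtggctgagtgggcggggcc
Rpl41: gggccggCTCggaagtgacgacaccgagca

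Start windows were matched for 64 of the 85 members, with 76 start sites. A run of at least 8 consecutive C or T letters on the coding strand was present at 24 of the 76 start sites (31.6%) and at 11.2% of 32775 start sites of other genes. The other strand was not searched, because the motif has a direction. The longest run had a median length of 6 bases in members and 4 in other genes. Annotated start sites can lie several bases from the first base of the RNA, and a short run in this window says only that these letters are not there.

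Libraries held 14833396 to 23704638 gene counts. Members took 4.04% and 3.64% of the gene counts in controls 1 and 2, and 5.29% and 4.54% in mutants 1 and 2. Mutant 1 stood apart in that 39.4% of its uniquely aligned reads lay outside annotated genes, against 22.1% to 24.9% in the other samples, and in that 1603 genes had no count, against 5173 to 6053. Alignments that were not unique, which were not counted for any gene, numbered 2.86 and 2.81 per gene count in control 1 and mutant 1, but 0.482 and 0.456 in control 2 and mutant 2. Lmnb1 itself had 20.1 and 18.5 counts per 1000000 gene counts (CPM) in the controls and 14.7 and 10.04 CPM in the mutants, a log2 change of -0.72 ± 0.31 (SE) that missed the threshold (adjusted p = 0.195, edgeR likelihood-ratio test). The deposited counts do not separate the deleted exon from the remainder of the gene. The paper reports depletion of the Lmnb1 transcript by PCR of cDNA from sorted mutant cells. By antibody staining it found lamin B1 missing from most Tomato-positive mutant cells, and it calls them Lmnb1-/- although a small minority kept the protein.

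Ribosomal protein genes made up a larger share of the mRNA in both mutants than in both controls. Their summed level was 40364 and 36367 CPM in controls 1 and 2, and 52897 and 45379 CPM in mutants 1 and 2. The groups did not overlap, and within each experimental group the mutant was the higher sample. The mean was 38365 ± 2826 CPM in controls and 49138 ± 5316 CPM in mutants (SD, n = 2 each), a 1.28-fold difference. Within group 1 the ratio of mutant to control was 1.31-fold, or 0.39 on the log2 scale, and within group 2 it was 1.25-fold, or 0.32. An exact two-sided permutation test over all 4 samples gave p = 0.333, which is the smallest value that 2 against 2 samples allow. It did not keep the pairing of samples within experimental groups.

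**Figure D1:**
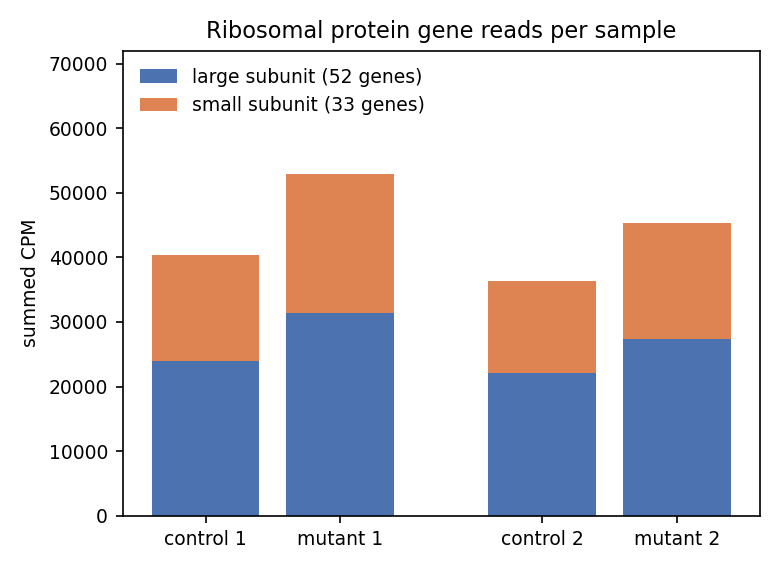
Summed CPM of the ribosomal protein genes in each sample (y axis, from 0), with the large subunit in blue and the small subunit in orange and samples ordered by experimental group along the x axis. In both experimental groups the mutant bar stands above that of its control, at 52897 beside 40364 CPM and 45379 beside 36367 CPM.

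Both subunits showed this difference. Large subunit genes summed to 23983 and 22108 CPM in controls 1 and 2, and to 31411 and 27328 CPM in mutants 1 and 2. Small subunit genes summed to 16381 and 14259 CPM in the controls and to 21485 and 18051 CPM in the mutants. The fold difference of the group means was 1.27 for the large and 1.29 for the small subunit. The 7 paralogs were a minor part of the sum, with 264 and 276 CPM in the controls and 305 and 318 CPM in the mutants, a 1.15-fold difference. Each of these sums was higher in both mutants than in both controls.

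A share of the library depends on all other genes. After trimmed mean of M-values (TMM) scaling of library sizes, a correction for differences in RNA composition, the log2 ratio of the summed level was 0.29 in group 1 and 0.30 in group 2. When genes past the genotype threshold were removed from the library totals, an alternative chosen after seeing the data, the ratios were 0.34 and 0.27.

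Levels per kilobase of transcript ranged widely among members. Rpl41, which encodes the smallest ribosomal protein, had the highest mean at 1991 CPM per kb, followed by the stalk gene Rplp1 at 1656 and the small subunit gene Rps12 at 1583. The median member was at 702 CPM per kb. The 10 members with the highest mean CPM held 24.0% of the members' sum. Without the member of highest CPM, Rplp0, the log2 fold difference of the mean summed level was 0.35, against 0.36 with it.

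Single genes did not pass the test for genotype. edgeR's likelihood-ratio test, with experimental group in the model, was run on 15438 genes with more than 1 CPM in at least 2 samples, which included 81 members. With a Benjamini-Hochberg adjusted p threshold of 0.05, 0 of the 81 were called higher and 0 lower in mutants, where 1.28% of all tested genes were called higher and 4.3% lower. At an unadjusted p under 0.05, 2 members were higher and 0 lower, and 6.32% of all tested genes were higher. edgeR's quasi-likelihood test also called 0 members in either direction (0.745% of all tested genes were called higher and 3.21% lower), although 53 members were higher and 0 lower at an unadjusted p under 0.05 (7.2% of all tested genes were higher). DESeq2, with the same model, called 16 members higher and 0 lower, where 1.14% of all tested genes were called higher and 3.45% lower, and 58 members were higher at an unadjusted p under 0.05 (5.24% of all tested genes). Without experimental group in the model the likelihood-ratio test called 0 members, where 0.0389% of all tested genes were called higher. The call for single members thus depended on the test.

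The direction was shared by nearly all members. The log2 fold change was positive in 79 of the 81 tested members, against 48.9% of all tested genes, and negative in 2, against 51.1% of all tested genes. Its median was 0.30, with quartiles at 0.25 and 0.35, while the median of all tested genes was -0.01 and their quartiles were -0.26 and 0.25. The median SE of a member's log2 fold change was 0.25. Both mutants were above both controls in CPM in 48 of the 81, against 15.2% of all tested genes, and both were below in 0 of the 81, against 10.6% of all tested genes. The large subunit had a median of 0.30 with 48 of 48 positive, and the small subunit a median of 0.32 with 31 of 33 positive. In a fit without mutant 1, the sample with many reads outside genes, the median was 0.20 with 70 of 81 positive. That fit has no term for experimental group and sets mutant 2 against both controls. Without both samples of group 1, the median TMM-scaled log2 ratio of mutant 2 to control 2 was 0.29. Members were tested together in 1 set of libraries and are not independent of each other.

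**Figure D2:**
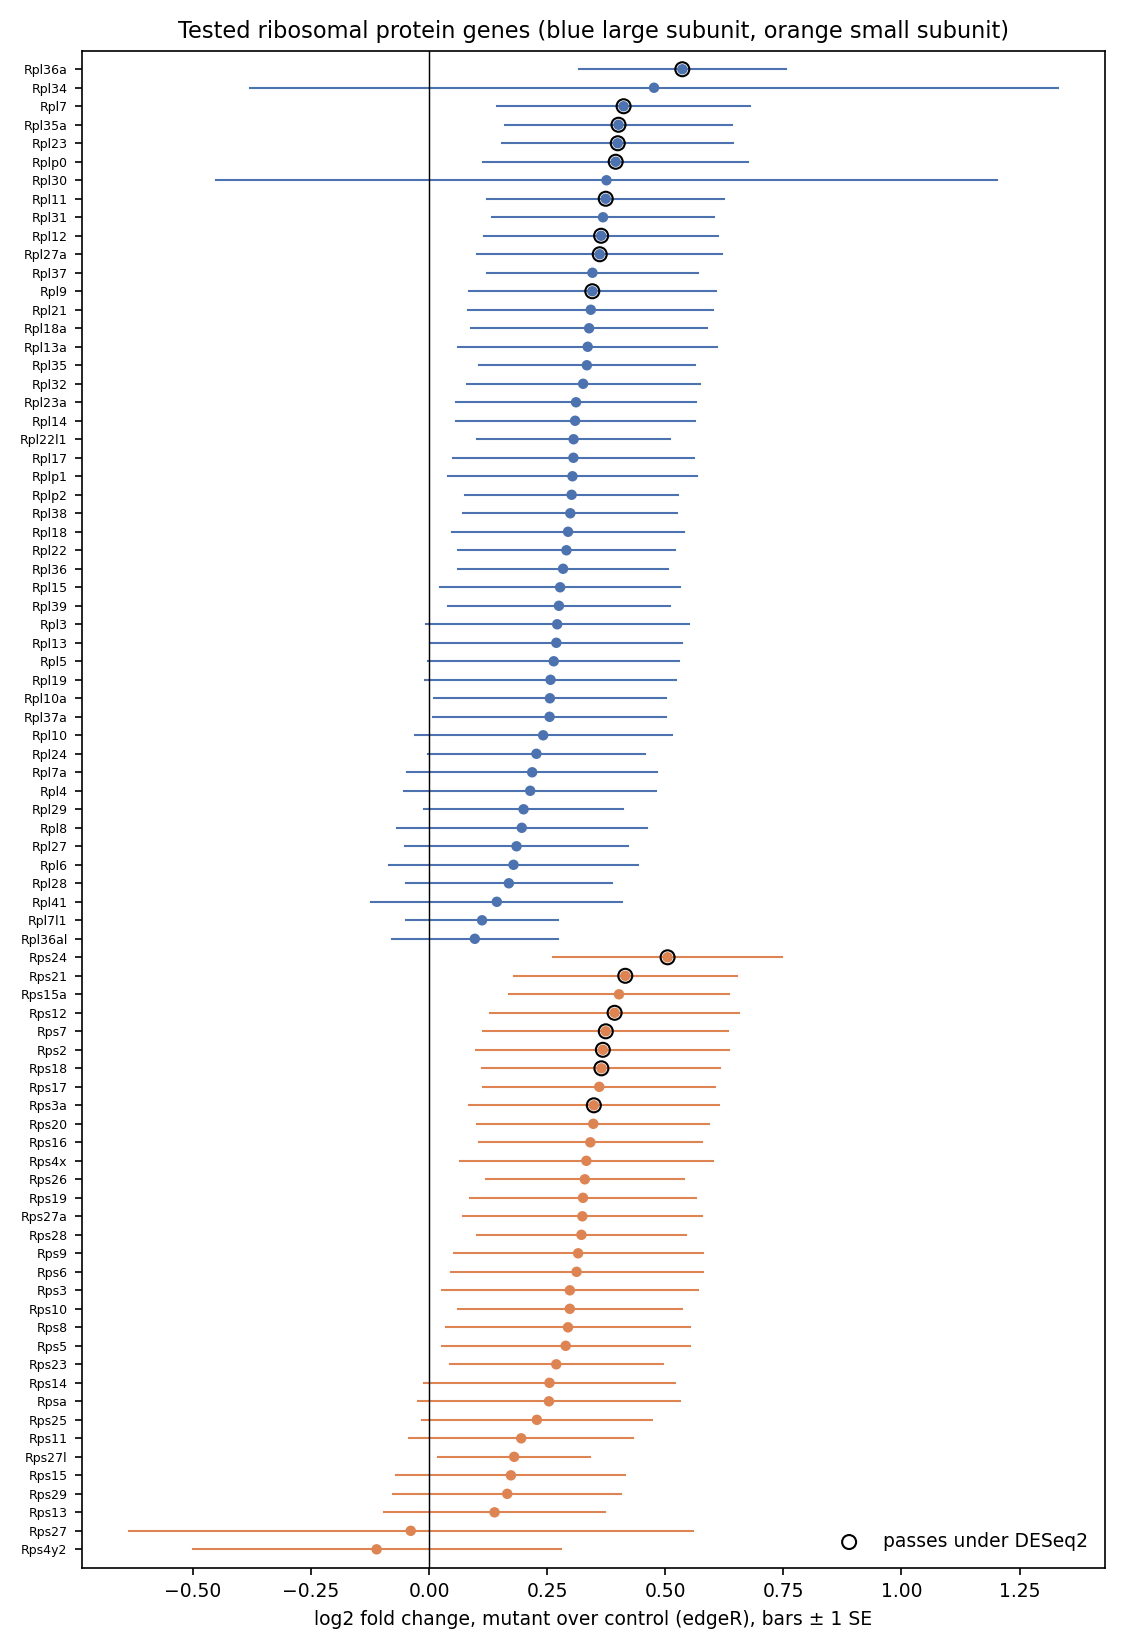
Log2 fold change of mutant over control (x axis) with bars of 1 SE for each of the 81 tested members, ordered within the large (blue) and small (orange) subunit. All but Rps27 and Rps4y2 lie right of 0, Rpl34, Rpl30 and Rps27 have long bars, and open circles mark the 16 members that DESeq2 called higher.

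Rpl36a had the largest difference of the family. This X-linked gene (chrX:134585654-134588062, 5 exons) encodes a large subunit protein near the site where spent tRNA leaves the ribosome. It had 179 and 211 CPM in controls 1 and 2, and 301 and 286 CPM in mutants 1 and 2. Both mutants were well above both controls. The log2 fold change was 0.54 ± 0.22 (SE), with an edgeR adjusted p of 0.155 and a DESeq2 adjusted p of 0.00618.

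Rps24, a small subunit gene that is mutated in some families with the inherited anaemia named after Diamond and Blackfan, was the other member with an unadjusted p under 0.05. It had 289 and 427 CPM in controls 1 and 2, and 446 and 601 CPM in mutants 1 and 2. The mutant was the higher sample in each experimental group, although mutant 1 and control 2 were close. Its log2 fold change was 0.50 ± 0.24 (SE), with an edgeR adjusted p of 0.268 and a DESeq2 adjusted p of 0.00243.

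Other members near the top of each subunit had similar values. Rpl7, a large subunit gene, had 552 and 1004 CPM in controls 1 and 2 and 816 and 1298 CPM in mutants 1 and 2, so that control 2 exceeded mutant 1. Its log2 fold change was 0.41 ± 0.27 (SE; edgeR adjusted p = 0.502). Rps21 had 324 and 293 CPM in controls 1 and 2 and 478 and 382 CPM in mutants 1 and 2, with no overlap. Its log2 fold change was 0.42 ± 0.24 (SE; edgeR adjusted p = 0.402). Rps15a had 286 and 249 CPM in controls 1 and 2 and 440 and 305 CPM in mutants 1 and 2, a log2 change of 0.40 ± 0.23 (SE; edgeR adjusted p = 0.415). Rpl7 and Rps21 were among the 16 members called by DESeq2, and Rps15a was not.

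The acidic stalk proteins, which recruit the factors that drive elongation, showed the same direction. Rplp0, the base of the stalk, had 1207 and 1058 CPM in controls 1 and 2 and 1744 and 1368 CPM in mutants 1 and 2, a log2 change of 0.39 ± 0.28 (SE; edgeR adjusted p = 0.563). Rplp1 had 861 and 585 CPM in the controls and 1121 and 739 CPM in the mutants, and Rplp2 had 299 and 217 CPM in the controls and 402 and 265 CPM in the mutants. Mutant 2 lay below control 1 for both, since control 2 and mutant 2 were the lower samples of each genotype. The fitted log2 fold change was 0.30 ± 0.26 (SE) for Rplp1 and 0.30 ± 0.22 (SE) for Rplp2.

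Rps6, the classical substrate of the S6 kinases, was among the steadier members. It had 785 and 798 CPM in controls 1 and 2 and 1024 and 1019 CPM in mutants 1 and 2. The gap between genotypes was larger than the gap within either. The log2 fold change was 0.31 ± 0.27 (SE; edgeR adjusted p = 0.664), and the DESeq2 adjusted p was 0.0782. Rpl3, a protein that reaches towards the catalytic centre, had 1165 and 1019 CPM in the controls and 1456 and 1283 CPM in the mutants. Rpl13a had 1030 and 845 CPM in the controls and 1458 and 1028 CPM in the mutants, where mutant 2 and control 1 were level. Rpsa, which is also known as a laminin receptor, had 1284 and 802 CPM in the controls and 1505 and 1051 CPM in the mutants, where mutant 2 lay below control 1.

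Rps15, which the study amplified beside Lmnb1 when it checked sorted cells by PCR, was one of the members with a small difference. It had 452 and 381 CPM in controls 1 and 2 and 549 and 430 CPM in mutants 1 and 2, a log2 change of 0.17 ± 0.24 (SE; edgeR adjusted p = 0.836). Rps13 was similar, with 367 and 287 CPM in the controls, 433 and 318 CPM in the mutants and a log2 change of 0.14 ± 0.23 (SE). Rpl41 had 972 and 641 CPM in the controls and 1159 and 708 CPM in the mutants, and its log2 fold change was 0.14 ± 0.27 (SE). For Rps15, Rps13 and Rpl41 the mutants and controls overlapped, because control 1 was above mutant 2.

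Ratios within the experimental groups were positive for both pairs in 79 of the 81 tested members, against 35.5% of tested genes. Among the 78 members with a mean above 10 CPM, 77 were higher in the mutant of both experimental groups. Their median log2 ratio was 0.39 in group 1 and 0.32 in group 2, and 57 of the 78 had the larger ratio in group 1. The ratios of the 2 experimental groups differed by a median of 0.11 per member. All of these ratios used CPM, and over all tested genes the median CPM ratio was 0.06 in group 1 and 0.02 in group 2. With TMM scaling the medians of the 81 tested members were close, at 0.31 in group 1 and 0.29 in group 2. Across the 78 members, the correlation of the 2 sets of CPM ratios was weak (Pearson's r = 0.17, Spearman's rho = 0.30). These points are genes that share 4 libraries. A ratio within an experimental group rests on 1 mouse of each genotype and has no test.

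**Figure D3:**
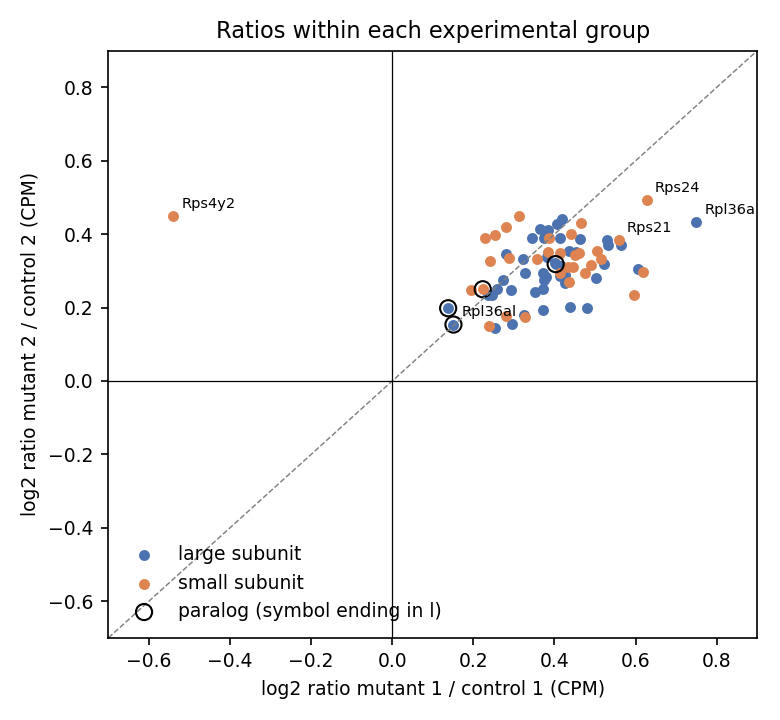
Log2 ratio of mutant to control CPM in group 1 (x axis) and group 2 (y axis) for the 78 members with a mean above 10 CPM. Points are genes (blue large subunit, orange small subunit, circled paralogs), the dashed line marks equal ratios, and 77 of 78 lie in the upper right part, with Rps4y2 the exception.

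Rps4y2 and Rps27 were the tested members that went the other way in the fit. Rps4y2 has the current symbol Rps4l and is a single-exon gene on chromosome 6 (148354656 to 148355598). It had 17.1 and 8.37 CPM in controls 1 and 2 and 11.7 and 11.5 CPM in mutants 1 and 2, so that it was lower in mutant 1 and higher in mutant 2 than in the matched control. Its log2 fold change was -0.11 ± 0.39 (SE; edgeR adjusted p = 0.954), and the value turned to 0.00 when all libraries were thinned to the same depth. Rps27, a zinc finger protein of the small subunit, had 4.51 and 3.74 CPM in the controls and 5.42 and 3.17 CPM in the mutants. Its log2 fold change was -0.04 ± 0.60 (SE; edgeR adjusted p = 0.992) and turned to 0.02 with library totals as the only scaling.

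Paralogs of ribosomal protein genes are copies that can replace the usual protein in some tissues. Of the 7 paralogs, 4 were tested, and all 4 had positive log2 fold changes with a median of 0.15. Rpl22l1 had 28.7 and 29.9 CPM in controls 1 and 2 and 38.0 and 37.4 CPM in mutants 1 and 2, a log2 change of 0.31 ± 0.20 (SE; edgeR adjusted p = 0.518). Rps27l, a p53-inducible paralog of Rps27, had 85.9 and 55.7 CPM in the controls and 100.3 and 66.2 CPM in the mutants. Rpl7l1 had 70.5 and 73.4 CPM in the controls and 77.5 and 84.2 CPM in the mutants. Rpl36al had 78.7 and 116 CPM in the controls and 87.4 and 130 CPM in the mutants. The log2 fold changes of Rps27l, Rpl7l1 and Rpl36al were 0.18 ± 0.16, 0.11 ± 0.16 and 0.10 ± 0.18 (SE), none past the threshold.

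The remaining paralogs were close to absent. Rpl10l and Rpl39l, which are known from the testis, had 0 counts in 3 samples and 8 and 9 counts in mutant 1. Rpl3l, known from striated muscle, had 0 and 18 counts in controls 1 and 2 and 11 and 4 counts in mutants 1 and 2. A count of 0 in 1 library allows a level of up to 0.127 CPM in the deepest library (control 1) and of 0.202 CPM in the shallowest (mutant 2), for counting error only. Mutant 1 was also the sample with the fewest genes at 0 counts. Rpl26, a core large subunit gene, was left out of the test as well, with 12 and 10 counts in the controls and 15 and 11 in the mutants.

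Some core members had very few counts. Reads with more than 1 alignment were not counted, and ribosomal protein genes have many processed pseudogenes. Across members, a median of 46.4% of the 50-base stretches of a transcript were absent from annotated transcripts of genes elsewhere, with a range from 1.35% in Rps27 to 100% in Rpl39l and Rpl3l. Rpl34 had 1.14 and 2.15 CPM in controls 1 and 2 and 2.12 and 2.43 CPM in mutants 1 and 2, while the pseudogene Rpl34-ps1 had 35.7 and 23.8 CPM in the controls and 52.5 and 32.5 CPM in the mutants. Rpl30 was also low, with 1.52 and 1.96 CPM in the controls and 2.44 and 2.22 CPM in the mutants. The unshared percentage was 28.7% in Rpl26, but 49.4% in Rpl34 and 52.2% in Rpl30, above the median of the members. In the other direction, Rps12 had 782 CPM on average with 9.89% unshared stretches, and across the 78 members above 10 CPM the Pearson correlation of log2 CPM with the unshared percentage was -0.20. Among members described above, the share was also under 20% in Rpl36a (14.5%), Rps6 (15.4%), Rpl3 (14.4%) and Rps13 (17.0%). Levels of such genes are uncertain, and whether their reads were assigned to the copies was not tested.

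The genotype difference was also seen in members with few 50-base stretches in common with annotated transcripts of other genes. In 9 tested members with at least 80% unshared 50-base stretches, an alternative chosen after seeing the data, the median log2 fold change was 0.27. The 9 ranged from -0.11 in Rps4y2 to 0.50 in Rps24. Their summed level had log2 ratios of 0.38 in group 1 and 0.29 in group 2. Copies outside annotated transcripts were not searched. Rps20, with 92.4% unshared stretches, still shared some with 50 other genes, so reads from copies were not excluded. The percentage also depends on the chosen transcript, which had 3706 bases in Rps20, against a median of 729 in tested members. Across the 78 members above 10 CPM the log2 fold change had a Pearson correlation of -0.15 with the unshared percentage and of -0.33 with the GC content of the transcript. Members with a pyrimidine run of at least 8 bases had a median log2 fold change of 0.31 (24 tested), and those with shorter runs 0.28 (36 tested). These values were not tested against each other.

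Other parts of the translation machinery were compared through lists of genes outside the family, and 0 genes of these lists were called by the edgeR likelihood-ratio test in either direction. That test called 1.28% of all tested genes higher and 4.3% lower. At an unadjusted p under 0.05, 2 of 56 ribosome biogenesis genes were higher and 0 lower. In the mTOR list 2 of 24 were higher and 1 lower, and in the mitochondrial list 0 of 75 were higher and 2 lower. The others had 0 such genes, and 6.32% of all tested genes were higher at this threshold. The share of all tested genes that were lower at this threshold was not counted. The quasi-likelihood test and DESeq2 each called 1 gene higher, the same gene Eef1a1 (0.745% and 1.14% of all tested genes were called higher). Fau and Gnb2l1 encode further ribosomal proteins under other names, and their log2 fold changes were 0.18 and 0.28. Non-ribosomal genes known for TOP mRNAs were positive in 19 of 19, with a median of 0.25. Among them Eef1a1 encodes the elongation factor that delivers tRNA. It had 5221 and 6692 CPM in controls 1 and 2 and 7108 and 8314 CPM in mutants 1 and 2, with a quasi-likelihood adjusted p of 0.0294 (edgeR) and a DESeq2 adjusted p of 0.0402. Eef2, which moves the ribosome along, had a log2 change of 0.08 ± 0.30 (SE).

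Translation factors as a whole were positive in 27 of 33, with a median of 0.13, and 9 of the 33 also stand in the TOP list. Ribosome biogenesis genes were positive in 38 of 56, with a median of 0.10 and a range from -0.26 to 0.70. Among these, Polr1c, a subunit of RNA polymerases I and III, had a log2 change of 0.36 ± 0.17 (SE; edgeR adjusted p = 0.286) and Mybbp1a, a nucleolar protein, one of 0.38 ± 0.18 (SE; edgeR adjusted p = 0.233). Genes of the mTOR and S6 kinase pathway were positive in 9 of 24, with a median of -0.04. The 3 with the smallest p were Rps6ka1 and Rps6ka2, which encode kinases of the RSK family, at 0.36 ± 0.17 and -0.46 ± 0.21, and Mycn, a growth-promoting transcription factor, at 1.19 ± 0.59 (log2 fold change ± SE). Mitochondrial ribosomal protein genes, which serve a separate ribosome, were positive in 39 of 75 with a median of 0.00. The differences between these lists and the cytosolic family were not tested.

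**Figure D4:**
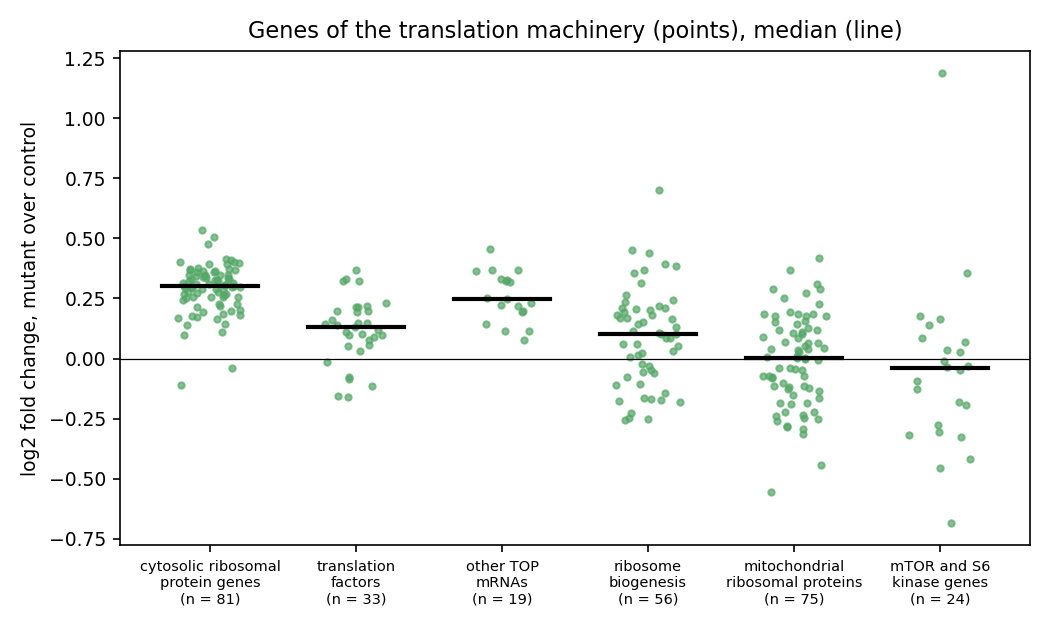
Log2 fold change of mutant over control (y axis) for genes of the translation machinery, 1 point per tested gene, with horizontal lines at the median of each list. The line lies at 0.30 for the 81 cytosolic ribosomal protein genes, at 0.25 for other TOP mRNAs, at 0.13 for translation factors, at 0.10 for ribosome biogenesis, at 0.00 for mitochondrial ribosomal proteins and at -0.04 for mTOR and S6 kinase genes.

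Markers of several cell types differed between the same samples. Of all tested genes, the edgeR likelihood-ratio test called 1.28% higher and 4.3% lower in mutants, and DESeq2 called 1.14% higher and 3.45% lower. Mature olfactory neuron markers were lower in mutants in 16 of 16 tested genes by the edgeR likelihood-ratio test and in 11 by DESeq2, and their summed level was 19957 and 9268 CPM in controls 1 and 2 and 11795 and 2830 CPM in mutants 1 and 2. Cell cycle markers were higher in 10 of 25 (6 by DESeq2) and lower in 0 by both tests, with sums of 551 and 533 CPM in the controls and 925 and 894 CPM in the mutants. Horizontal basal cell markers were higher in 2 of 10 by edgeR and in 7 by DESeq2 and lower in 0 by both, with sums of 2463 and 1890 CPM in the controls and 3663 and 2517 CPM in the mutants. Progenitor markers were higher in 2 of 11 (3 by DESeq2) and lower in 1 by both, with sums of 524 and 498 CPM in the controls and 673 and 627 CPM in the mutants. In sorted bulk samples, fewer cells of a type and less RNA per cell cannot be told apart, and the part of these markers in the ribosomal protein difference was not tested.

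Further marker lists differed less regularly. The shares of all tested genes beside these counts are again 1.28% higher and 4.3% lower by edgeR, and 1.14% higher and 3.45% lower by DESeq2. Immature neuron markers were lower in 2 of 15 by edgeR and in 3 by DESeq2 and higher in 0 by both, with sums of 4011 and 3295 CPM in the controls and 3498 and 2923 CPM in the mutants. Sustentacular (supporting) cell markers were called in 0 of 9 by edgeR, while DESeq2 called 2 higher, Cyp2g1 and Cbr2. Their sums of 7626 and 14567 CPM in controls 1 and 2, and 9988 and 18748 CPM in mutants 1 and 2 differed more between experimental groups than between genotypes. Ciliated cell markers were lower in 3 of 8 (2 by DESeq2) and higher in 0 by both, with sums of 457 and 298 CPM in the controls and 339 and 145 CPM in the mutants. Immune markers were called in 0 of 17 by edgeR and by DESeq2, with sums of 835 and 809 CPM in the controls and 420 and 893 CPM in the mutants. Lyz2 was a large part of these sums, with 218 and 681 CPM in controls 1 and 2 and 161 and 581 CPM in mutants 1 and 2. Across the 17, the median log2 fold change of group 2 over group 1 was -1.39, so the similar control sums do not mean similar immune marker levels. Of 7 erythrocyte markers listed in the tables, 6 were at 0 counts in at least 1 sample, and their sum was at most 7.68 CPM. Of the other marker lists, 1 immune marker was at 0 in a sample. Without experimental group in the model, the likelihood-ratio test called 0 genes lower and 6 higher of all 15438, so the marker calls above rest on the paired design.

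Ribosomal protein genes were also compared between the experimental groups, which differ in parents, age, sex and treatment. In the same edgeR fit, 3 of the 81 members were higher in group 2 than in group 1, where 17.7% of all tested genes were called higher, and 1 was lower, where 14.0% of all tested genes were called lower. Both shares of members were below those of all tested genes. The median log2 fold change of group 2 over group 1 was -0.21, and 57 of the 81 members were negative. Over all tested genes the median was -0.03, and 8002 of 15438 were negative. The summed level was lower in group 2 for both genotypes, by a log2 difference of -0.15 in controls and -0.22 in mutants.

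The members called higher in group 2 were Rpl23, Rpl7 and Rpl36al. Rpl23, a large subunit protein at the interface of the subunits, had 249 CPM in control 1 and 380 in mutant 1, against 498 in control 2 and 615 in mutant 2. Its log2 fold change for experimental group was 0.88 ± 0.24 (SE; edgeR adjusted p = 0.00223), and that for genotype was 0.40 ± 0.24 (SE; edgeR adjusted p = 0.456). Both samples of group 2 were above both of group 1. For Rpl7 the log2 fold change for experimental group was 0.80 ± 0.27 (SE; edgeR adjusted p = 0.0135), and for Rpl36al it was 0.59 ± 0.18 (SE; edgeR adjusted p = 0.00407), from the CPM given above.

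Rps27l was the member called lower in group 2, with a log2 change of -0.58 ± 0.16 (SE; edgeR adjusted p = 0.00172). Rpl41 and Rps14, a small subunit gene, came next, with log2 fold changes of -0.63 ± 0.27 (SE; edgeR adjusted p = 0.0574) and -0.62 ± 0.27 (SE; edgeR adjusted p = 0.0604). Rps14 had 923 CPM in control 1 and 1127 in mutant 1, against 579 in control 2 and 730 in mutant 2, so that both samples of group 2 were lower. Other tests called more members lower in group 2, namely 19 by the quasi-likelihood test (13.6% of all tested genes) and 25 by DESeq2 (11.3% of all tested genes). They called 6 (17.8%) and 7 (14.3%) members higher.

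GC content of the transcript varied with the difference between experimental groups. Across the 78 members above 10 CPM, Pearson's r between the log2 fold change for experimental group and GC content was -0.50 (Spearman's rho = -0.51), whereas with the unshared percentage it was -0.02. With transcript length it was 0.25 (Spearman's rho = 0.21). The points share the same 4 libraries. Tested members had a median GC content of 51.8% and a median transcript length of 729 bases, against 50.4% and 2706 bases for all tested genes. When smooth corrections for GC content and length were added to the fit, the median log2 fold change of members for experimental group turned from -0.21 to 0.16, and 14 of the 81 were negative. GC content and length were corrected in the same fit, and their separate parts in this change were not tested. With these corrections, 6 members were called higher (11.1% of all tested genes) and 1 lower (9.17% of all tested genes). The direction of the family between experimental groups therefore depended on this correction, while the genotype median was 0.34 with it and 0.30 without it.

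**Figure D5:**
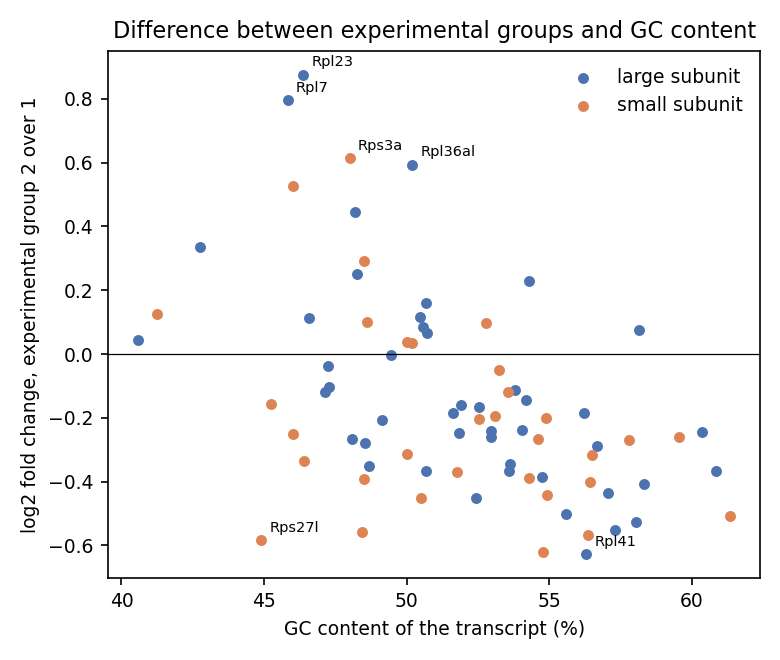
Log2 fold change of group 2 over group 1 (y axis) against the GC content of the transcript in percent (x axis) for the 78 members with a mean above 10 CPM (blue large subunit, orange small subunit). Members of low GC content such as Rpl23 and Rpl7 lie at the top, and values fall towards higher GC content, with Pearson's r of -0.50.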

How the data were processed

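Counts were raw reads per gene symbol, which the authors made with HTSeq in intersection-nonempty mode and deposited as 1 table per sample. RNA had been treated with DNase and depleted of ribosomal RNA with Ribo-Zero Gold. Reads were single-end, of 50 bases. Matches to ribosomal RNA were taken out with Bowtie2 2.0.6, and other reads were aligned to mm10 with TopHat2 2.0.7, versions as in the submitters' processing notes. The 5 tally lines for unassigned reads were left out of library sizes.

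CPM were counts per 1000000 gene counts. The test was edgeR 4.0.16 (R 4.3.3, glmFit and glmLRT, TMM factors) with genotype and experimental group, the model of the study's methods. SE are from that fit. The library totals printed by the study include the tally lines, so the alternative with tally lines kept is nearer to its fit. That alternative tested 13557 genes and called 185 higher and 625 lower in mutants. The labels state that the samples of 1 experimental group share parents, age, sex and preparation, so replicate numbers pair the samples. The deviations of same-numbered samples from the means of their genotypes had a correlation of 0.522 over all tested genes. The fit without that block is an alternative. Ratios within an experimental group used a prior count of 2. DESeq2 1.42.0 and the other settings are described in the closing section. The tests were tried on simulated counts that held no difference between experimental groups. These data have such a difference, and no result here rests on that trial.

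Coordinates, transcript length and GC content came from GENCODE annotation of GRCm38, matched for 98.01% of symbols by current or older name. The transcript was the shortest of the principal basic ones. Levels per kilobase depend on it. Counts of antisense or overlapping genes cannot be separated where strand was not used.

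Members, lists and tests were chosen with earlier results of these data known. Genes named with values are the 3 highest and 3 lowest log2 fold changes of each subunit, the paralogs, the members left out by the filter, the panel Rplp0, Rplp1, Rplp2, Rpsa, Rps6, Rps15, Rpl3 and Rpl13a, the 3 highest and 3 lowest levels per kb and the 3 smallest p for experimental group in each direction. Rpl30, Fau, Gnb2l1, Eef1a1, Eef2, Polr1c, Mybbp1a, Rps6ka1, Rps6ka2, Mycn, Cyp2g1, Cbr2 and Rpl34-ps1 were named after their values were seen.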

Additional observations from a re-analysis of the deposited data

Results flagged for a closer look

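Some values moved in opposite directions in the 2 experimental groups. For Rps4y2 the log2 ratio of mutant to control was -0.54 in group 1 and 0.45 in group 2. For Rps27 it was 0.26 and -0.23, and for Rpl3l, with 0 to 18 counts per sample, 2.61 and -1.36. The median log2 ratio of the immune markers was -1.65 in group 1 and 1.31 in group 2. Each rests on 1 mouse per genotype and experimental group, and the difference was not tested. Outside the gene counts, 39.4% of the uniquely aligned reads of mutant 1 lay outside annotated genes, above both controls (23.8% and 24.9%). Without mutant 1, in a fit that has no term for experimental group, the median log2 fold change of the members was 0.20, and without both samples of group 1 the median TMM-scaled log2 ratio was 0.29.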

How the results depend on the processing

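Under every other test, scaling and filter run, the count of members called lower in mutants remained 0, and the count called higher was 0 except under DESeq2 (16). Where scaling, filters, depth, offsets or tally lines changed, 0.856% to 1.57% of all tested genes were called higher and 2.31% to 5.14% lower. In the paired design, the fit with no replicate block also called 0 members in either direction, and no other translation gene. Marker genes lost their calls without the block. The median log2 fold change of members was between 0.20 and 0.43 when 1 library was left out (0.20 without mutant 1, 0.43 without mutant 2 and without control 1). These fits of 3 libraries had genotype only, with the lone sample assumed to vary like the others. Each experimental group alone gave 0.31 and 0.29. With no filter on low counts the median of all genes rose to 0.14, and that of members was 0.33. The count lower in experimental group 2 was 19 with the quasi-likelihood test, 25 with DESeq2, 2 with CPM above 1 in all 4 samples (17.2% of all tested genes) and 3 with tally lines kept (17.0%). The count higher was 6, 7, 1 without a filter (12.6%) and 6 with GC and length offsets. Of the other translation genes, the quasi-likelihood test and DESeq2 each called 1 higher (0.745% and 1.14% of all tested genes were called higher). Leaving out samples reversed the sign for Rpl23 (-0.0395 to 0.99), Rpl36al (-0.22 to 0.45), Rpl41 (-0.22 to 0.49), Rplp1 (-0.000737 to 0.62), Rps13 (-0.0706 to 0.35), Rps14 (-0.0737 to 0.63), Rps27 (-0.41 to 0.34), Rps27l (-0.13 to 0.53), Rps4y2 (-0.64 to 0.43) and Rpsa (-0.0296 to 0.62). The sign also reversed for Rps27 with library totals only (0.0196) and for Rps4y2 after thinning (0.00246). The cause was not tested. Members limited to 50-base stretches that occur once in the genome were not run. Rpl30 and Rpl34 had 27 to 54 counts per library and SE of 0.83 and 0.86, and why these counts were low was not tested.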
